A study of Mus musculus with 52 samples.

Results

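The comparison set primary mouse osteosarcomas of the genotype p53R172H/fl against osteosarcomas of the genotype p53fl/fl, and 35 of the 52 libraries of the series belong to it. Libraries were placed by the genotype in their sample labels. In p53fl/fl tumours both copies of Trp53 were conditional (floxed) alleles, and in p53R172H/fl tumours 1 copy was floxed and the other carried the missense change R172H. Every group used here thus carried at least 1 floxed copy. None of the sources used here gives the recombinase driver, the strain, the sex, the age or the site of a tumour. The main test used the 23 libraries whose column names do not start with R1002, 13 of p53R172H/fl and 10 of p53fl/fl. The 12 libraries whose names do, 6 of each genotype, served as a repeat. Total counts were 36606728 to 60336397 in the main libraries (median 51434767) and 21596798 to 61611185 in the repeat.

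Trp53 encodes p53, a transcription factor that responds to DNA damage and other stress by switching on genes for cell cycle arrest and cell death. Loss of p53 is a frequent event in osteosarcoma, a bone cancer whose cells make bone matrix. R172H changes an arginine of the DNA-binding domain. It is the mouse counterpart of a hotspot change of human cancers, and the altered protein is known to fold poorly and to build up in tumour cells. The study asked how tumours driven by different p53 mutants differ in expression. The genotypes differ by design in this codon and in the number of floxed copies, and the codon is shown because it defines the mutant allele. In the 390-residue protein of the reference transcript Trp53-203 (GENCODE M21), the R172H codon lies in exon 5, on the plus strand of GRCm38 chr11:69588511-69588513. The reference sequence around it is printed 5′ to 3′ with that codon in capitals.
Trp53, R172H codon, reference: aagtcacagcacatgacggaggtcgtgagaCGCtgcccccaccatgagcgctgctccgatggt

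The count table holds whole-gene totals, so it shows neither which allele a read came from nor whether the floxed copy had recombined. Whether tumours came from separate animals is also not stated for each library, so p-values measure the spread between these samples.

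The libraries were not all independent or alike, and 3 facts bear on what follows. First, each of the 12 repeat libraries matched 1 main library of its own genotype better than any other, with Spearman correlations of 0.571 to 0.895 across 14480 genes. These were not correlations of plain expression levels. For each gene the mean of its genotype within its library set (sets are given below) was first subtracted from the log2 level. Genes of the X and Y chromosomes were left out. The next best match of any of them reached at most 0.38, and the closest 2 main libraries reached 0.394. These correlations run across genes, which are no replicates of each other. The repeat was therefore read as a second measurement of tumours already in the main test, although its labels give other tumour numbers. The other 11 main libraries (7 and 4) had no match. Second, column names put the main libraries in 2 sets, called A (8 of each genotype) and C (5 p53R172H/fl and 2 p53fl/fl). After the subtraction the 2 p53fl/fl libraries of set C, tumours 4183 and 6019, were mirror images of each other. Their matches (0.634 and 0.571) thus rest on 1 contrast. In set A every p53fl/fl name starts with FM or FNM and every p53R172H/fl name with WFM or WFNM, so prefix and genotype cannot be told apart there. Last, 5 main libraries held both Xist, the RNA of the inactive X chromosome, and the Y-linked Ddx3y at 20 CPM or more (p53R172H/fl tumours 627, 1241 and 1439, and p53fl/fl tumours 1512 and 1522). CPM are counts scaled to the library size. They were plain for this cutoff and adjusted by TMM for the values printed below. Bone genes were abundant in every main library. Col1a1, the main collagen chain of bone, lay at 19298 to 76543 CPM in p53fl/fl and 27121 to 96030 in p53R172H/fl. The osteoblast transcription factors Runx2 and Sp7 had group medians of 196 to 209 CPM.

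Few genes separated the genotypes. Of 18018 genes tested with edgeR, 16 (0.0888%) had an adjusted p under 0.05, the threshold for a call here. In p53R172H/fl tumours 4 genes rose (0.0222%) and 12 fell (0.0666%). Beside them, 12.4% of all genes had an unadjusted p under 0.05, 5.34% higher and 7.04% lower. Positive fold changes made up 47.9% of all genes. As a description, genotype took 6.47% of the log2 CPM variance and library set 8.11%. Genotype labels shuffled at random over the 23 libraries took 4.54% on average, so much of the 6.47% is what any such split takes. In this permutation test a share as large as that of genotype had p 0.0342, and 0.0302 when labels were shuffled within library set. The share of library set was not shuffled. The main libraries of the genotypes did not overlap at all for 4 genes (0.0222% of those tested), namely Trp53, Ifitm2, Fmr1 and Sp3.

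Trp53, the gene that the genotypes alter, was the most strongly separated. The gene (ENSMUSG00000059552.13, chromosome 11, 69580359 to 69591873) was read at 8.94 CPM (lowest), 16 (median) and 20.2 (highest) in the p53fl/fl main libraries. In p53R172H/fl the lowest, median and highest were 27.1, 37.6 and 51.1 CPM. Every mutant library thus lay above every p53fl/fl library, and no p53fl/fl library was near 0. Trp53 rose by 1.30 on the log2 scale (SE 0.14, adjusted p 5.45e-05 by edgeR). A two-sided permutation test over the 23 libraries gave p 4e-05. The repeat showed the same separation, with p53fl/fl at 8.53 to 19.2 CPM and p53R172H/fl at 26.2 to 39.8. Its log2 fold change was 1.33, and an exact two-sided permutation test of 6 against 6 gave p 0.0021645. That is the smallest p this test can give, so it only restates that the groups did not overlap. Over all genes tested in the repeat, 0.738% had groups that did not overlap. Within set A alone, where 0.532% of genes were called, the edgeR value was 1.16 (adjusted p 0.000954). In set C, with 2 p53fl/fl libraries and 0.00536% of genes called, it was 1.91 (adjusted p 0.392). The 11 main libraries without a match, where 0.0% were called, gave 1.01 (adjusted p 0.211).

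**Figure D1:**
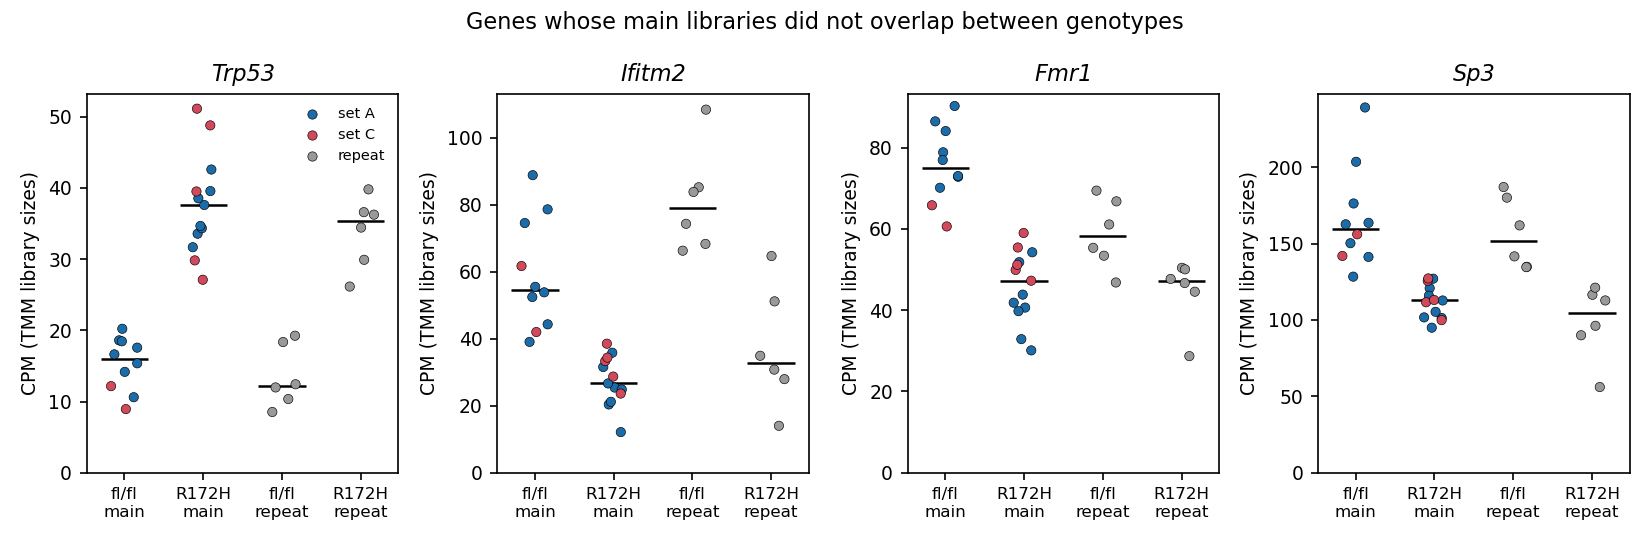
CPM of Trp53, Ifitm2, Fmr1 and Sp3 in each library (points; blue for set A, red for set C, grey for the repeat), with the median of each group as a bar. In the main libraries the genotypes do not overlap for any of the 4 genes, while in the repeat they overlap for Fmr1.

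Ifitm2 fell in the mutant tumours. It encodes an interferon-induced membrane protein of the family that blocks entry of viruses into cells. p53fl/fl main libraries had 39.1, 54.7 and 88.8 CPM of Ifitm2 (lowest, median, highest), and p53R172H/fl libraries had 12.1, 26.7 and 38.5 CPM. The gap between the groups was narrow, from mutant tumour 1241 at 38.5 to p53fl/fl tumour 1522 at 39.1 CPM. On the log2 scale Ifitm2 fell by 1.11 (SE 0.17, adjusted p 0.00528 by edgeR). In the repeat the highest mutant library had 64.7 CPM and the lowest p53fl/fl library 66.3, with a log2 fold change of -1.12. Its neighbours in the family gave no such difference. Ifitm3 had group medians of 48.7 CPM in p53fl/fl and 51.3 in p53R172H/fl (log2 fold change 0.12, SE 0.27, adjusted p 0.901 by edgeR), and Ifitm1 had 4.53 and 4.43 (-0.20, SE 0.34, adjusted p 0.863). These genes are close copies of each other, so reads could have been divided among them in counting. The difference between Ifitm2 and its neighbours was not tested.

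Fmr1 and Sp3 were lower by smaller amounts but without overlap. Fmr1 encodes FMRP, an RNA-binding protein that restrains translation and whose loss causes fragile X syndrome. Fmr1 had 60.6, 75.0 and 90.2 CPM in p53fl/fl and 30.1, 47.3 and 59.0 in p53R172H/fl (lowest, median, highest). It fell by 0.72 on the log2 scale (SE 0.11, adjusted p 0.00528 by edgeR). Its 2 lowest p53fl/fl libraries, at 60.6 and 65.8 CPM, were those of set C, where the log2 fold change was -0.25. In the repeat the value was -0.40 and the groups overlapped, with p53fl/fl at 46.8 to 69.4 and p53R172H/fl at 28.7 to 50.4 CPM. Sp3, a zinc finger transcription factor of GC-rich promoters, had 128, 159 and 239 CPM in p53fl/fl and 94.9, 113 and 127 in p53R172H/fl. It fell by 0.57 (SE 0.10, adjusted p 0.0253 by edgeR), and by 0.67 in the repeat, where the groups again did not overlap. A gene on the opposite strand, Sp3os, overlaps it, and no source used here says whether counting used strand. Over all genes, 0.738% of those tested in the repeat had groups that did not overlap.

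Gm4737 had the largest fold change of the called genes but was not low against every p53fl/fl tumour. This annotated protein-coding gene (chromosome 16, 46152985 to 46155077) was read at 8.13 to 9.84 CPM in p53fl/fl tumours 1606, 6019, 1512 and 4183, and at 4.99 in tumour 1427. The other 5 p53fl/fl libraries had 0.244 to 0.484 CPM. All 13 p53R172H/fl libraries lay between 0.0947 and 0.65 CPM. The p53fl/fl group thus split into high and low libraries, and the mutant group overlapped the low ones. Gm4737 fell by 4.16 on the log2 scale (SE 0.64, adjusted p 0.00528 by edgeR). The gene was below the filter of the repeat test. Repeat libraries gave 6.66 to 10.4 CPM in 3 p53fl/fl tumours, at most 0.453 in the other 3, and at most 0.195 in p53R172H/fl.

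The other genes that rose were Atp1b2, AA465934 and Nav1. Nav1 encodes neuron navigator 1, a protein bound to microtubules. It had 102, 144 and 203 CPM in p53fl/fl and 180, 229 and 327 in p53R172H/fl, so the groups overlapped between 180 and 203 CPM. Nav1 rose by 0.62 on the log2 scale (SE 0.12, adjusted p 0.0485 by edgeR), and 0.85 in the repeat. Gm38399, 2610012C04Rik and Gm37333 overlap Nav1 on the same strand, and Gm4793 overlaps it on the opposite strand. AA465934, an annotated locus on chromosome 11 far from Trp53, had 0.309, 0.745 and 2.28 CPM in p53fl/fl and 0.693, 3.6 and 7.21 in p53R172H/fl. AA465934 rose by 1.84 (SE 0.35, adjusted p 0.0485 by edgeR). A small nucleolar RNA gene, Snord7, overlaps it on the same strand.

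Atp1b2 is the tested gene next to Trp53 on chromosome 11, on the opposite strand, with its start coordinate 19.4 kb further on. It encodes a beta subunit of the sodium and potassium pump. p53fl/fl libraries had 0.478, 0.999 and 2.48 CPM of Atp1b2 and p53R172H/fl libraries had 0.377, 5.09 and 37. The highest value came from mutant tumour 1383 and the lowest from mutant tumour 621. Atp1b2 rose by 2.68 (SE 0.54, adjusted p 0.0485 by edgeR), and the repeat value was 2.32. Tumours 1383 and 621 were also the mutant libraries with the most and the least skeletal muscle RNA, described further on. With the summed muscle level as a covariate, the log2 fold change of Atp1b2 was 1.11 (adjusted p 0.368 by edgeR), and without tumour 1383 it was 2.11 (adjusted p 0.0798).

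The remaining 8 called genes all fell, by 0.48 to 1.06 on the log2 scale. Hcfc1r1, which encodes a regulator of the host cell factor HCFC1, fell by 1.06, from a median of 37.5 CPM to 18.8. Ap3s1, a subunit of the AP-3 complex of vesicle transport, fell by 0.90, from 38.7 to 19.4. Lin7c, a PDZ scaffold protein at cell junctions, fell by 0.57, from 88.0 to 59.7. Dnajb9, a helper chaperone of the endoplasmic reticulum, fell by 0.72, from 21.4 to 14.2. Rsrc2, an arginine- and serine-rich protein, fell by 0.67, from 101 to 64.7. Zfp68, a zinc finger protein, fell by 0.63, from 69.4 to 47.7. Polr2j, a subunit of RNA polymerase II, fell by 0.60, and Ppp1cc, a catalytic subunit of protein phosphatase 1, fell by 0.48. Zfp68, Rsrc2, Polr2j and Ppp1cc lie on chromosome 5 and Sp3 and Lin7c on chromosome 2. Hcfc1r1, Zfp68, Polr2j and Ppp1cc overlap other annotated genes.

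Not all 16 calls were equally firm. Leaving out each of the 23 libraries in turn kept 4 calls every time, those of Trp53, Gm4737, Ifitm2 and Fmr1. The other 12 were lost in at least 1 of these fits, and 10 of them had an adjusted p of 0.0485, just inside the threshold. Further fits lost some of the 4 as well. Without the 5 libraries that held Xist and Ddx3y, Trp53 alone was called. Gm4737 was not called by limma voom (log2 fold change -2.56, adjusted p 0.127). In the repeat all 15 genes that could be tested had the direction of the main test, with unadjusted p under 0.05 for 13, but these are second libraries of the same tumours. With library set as a covariate edgeR kept 9 of the 16 calls. It lost those of Nav1, AA465934, Lin7c, Polr2j, Rsrc2, Ppp1cc and Dnajb9, at adjusted p from 0.0526 (AA465934) to 0.0619 (Rsrc2). None of the 16 was called in the repeat, since edgeR called 0 of 17346 genes in the repeat (0.0%) and 11.3% had an unadjusted p under 0.05. Rsrc2 stood apart by set, with -0.80 in set A and -0.03 in set C. The loci of 2 annotation classes, TEC and sense intronic, held a share of the counts that differed by genotype in opposite directions in the 2 sets. Its medians were 0.386% in p53fl/fl and 0.295% in p53R172H/fl in set A, but 0.153% and 0.333% in set C. Over both sets they were 0.345% and 0.299%, and the genotypes overlapped. In set A it was 0.293% to 0.529% in p53fl/fl and 0.222% to 0.379% in p53R172H/fl, and in set C 0.122% and 0.184% against 0.268% to 0.381%. With this share as a covariate edgeR called 52 genes, all 16 among them.

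**Figure D2:**
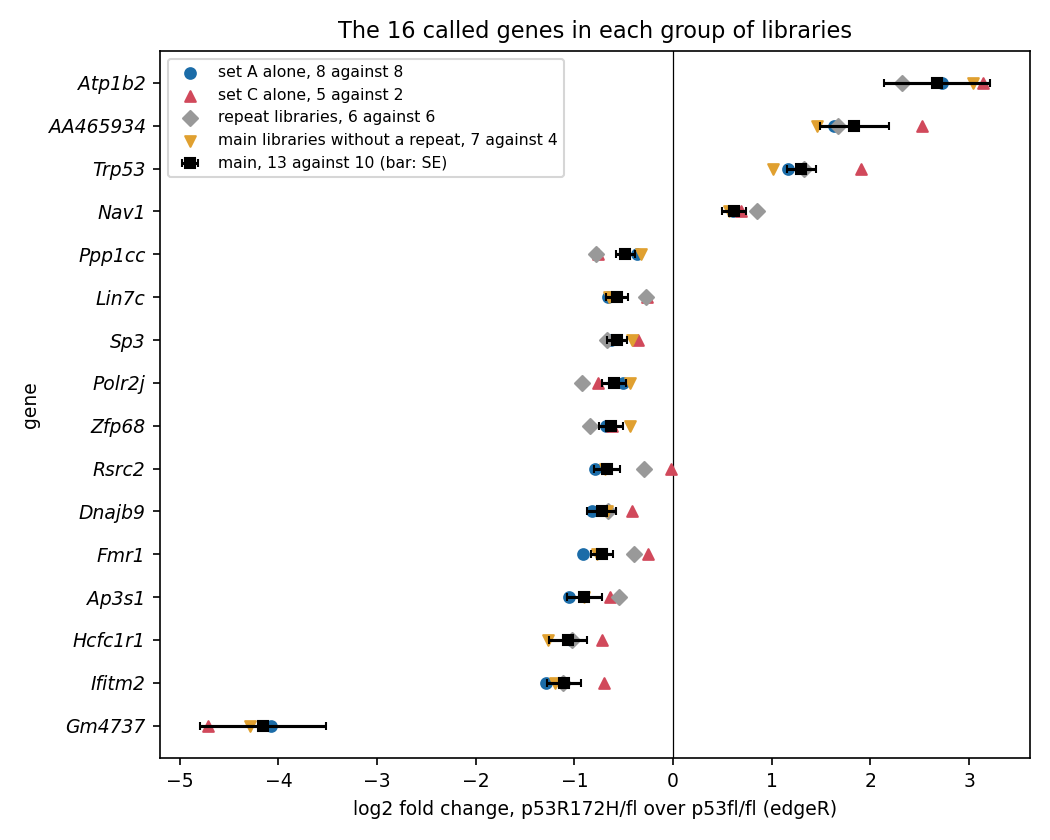
Log2 fold change (edgeR, p53R172H/fl over p53fl/fl) of the 16 called genes in the main test (black, bar: SE) and in set A, set C, the repeat and the main libraries without a repeat (coloured symbols). Positive genes lie right of the line. Rsrc2 is close to 0 in set C, and Gm4737 has no repeat value because it was not tested there.

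Known p53 target genes split evenly in sign. Of the 38 listed and tested, 19 had positive values, and 5 were higher and 0 lower at an unadjusted p under 0.05, against 5.34% and 7.04% of all genes. None was called, and at a share of 0.0888% over all genes 0 calls in a list of this size is no result about the list, here or in the lists that follow. Their median log2 fold change was -0.00, against -0.02 over all genes. Cdkn1a, which stops the cell cycle, had medians of 55.8 CPM in p53fl/fl and 64.7 in p53R172H/fl (log2 fold change 0.13, SE 0.25, adjusted p 0.886 by edgeR). Mdm2, which marks p53 for destruction, had 55.8 and 52.8 CPM (-0.01, SE 0.11, adjusted p 0.986). A missed threshold does not show that the genotypes act alike.

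The target with the smallest p was Pvt1, the non-coding gene beside Myc on chromosome 15, and a few libraries carried its value. Mutant tumours 1441, 622, 383 and 1241 had 1420, 673, 293 and 189 CPM of Pvt1. The other 9 mutant libraries had 11 to 34.4 CPM, and p53fl/fl libraries had 9.72 to 65.3. Repeat libraries 524, 344 and 424, which match tumours 622, 383 and 1241, had 618, 242 and 142 CPM. For Pvt1 the log2 fold change came to 3.11 (SE 0.89, adjusted p 0.145 by edgeR), while the medians were 16.7 and 25.9 CPM. Myc, the growth-promoting transcription factor next to it, had medians of 51.9 and 67.4 CPM and highest mutant libraries of 420 and 339 in tumours 1441 and 383 (log2 fold change 0.92, adjusted p 0.394). Eda2r, a death receptor of the tumour necrosis factor family, had medians of 1.77 and 4.10 CPM (1.38, SE 0.50, adjusted p 0.255). Its highest mutant value, 27.1 CPM, came from tumour 1383.

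Of 23 tested genes of the p53 family and its regulators, Trp53 alone was called. Their median log2 fold change was 0.07. Cop1, an E3 ligase that acts on p53, had medians of 89.2 CPM in p53fl/fl and 79.9 in p53R172H/fl (-0.29, adjusted p 0.239 by edgeR). Among 23 tested genes of a stretch of chromosome 11 around Trp53, Atp1b2 alone was called, and the median was 0.00. At an unadjusted p under 0.05, 6 of the 23 were higher and 1 was lower, against 5.34% and 7.04% of all genes. Wrap53, which starts just before Trp53 on the opposite strand, had medians of 9.20 and 11.7 CPM (0.43, SE 0.15, adjusted p 0.223). Kdm6b, which encodes a histone demethylase, had 35.2 and 56.5 CPM (0.83, SE 0.20, adjusted p 0.0957). Fxr2 and Sat2, which follow Atp1b2, gave 0.09 and -0.27.

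Skeletal muscle genes leaned higher in the mutant tumours more than any other list. All 32 members of the muscle list were read in every main and repeat library, and none was at 0. All 32 had positive log2 fold changes, 24 of them at an unadjusted p under 0.05 (5.34% of all genes were higher at this level), but 0 were called. Genes of 1 tissue are not independent of each other, so these counts are no replicates. Their median was 1.99, and 2.07 in set A, 2.61 in set C and 1.71 in the repeat. In the main libraries without a match 29 of the 32 were positive. Summed over the list, p53fl/fl libraries had 250 CPM (lowest), 767 (median) and 8452 (highest), and p53R172H/fl libraries had 465, 3677 and 54435. The groups overlapped. The lowest mutant library was tumour 621 at 465 CPM, and the highest p53fl/fl library was tumour 562 at 8452. In the repeat all 6 mutant libraries lay at 3102 to 12243 CPM, 5 p53fl/fl libraries at 417 to 865, and library 475, the match of tumour 562, at 8797. Without mutant tumour 1383 the median of the list was 1.15, the lowest of the 23 fits that left out 1 library, and the highest was 2.68.

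Actn3, an alpha-actinin of fast muscle fibres, had 4.58, 19.3 and 88.0 CPM in p53fl/fl and 6.25, 81.0 and 806 in p53R172H/fl. For Actn3 this came to a log2 fold change of 2.32 (SE 0.67, adjusted p 0.145 by edgeR). Myh4, a myosin of fast fibres, had medians of 24.2 and 290 CPM (2.88, SE 0.90, adjusted p 0.181). Atp2a1, the calcium pump of the muscle reticulum, had medians of 18.9 and 130 CPM (2.74, SE 0.86, adjusted p 0.185). Of 17 tested regulators of muscle formation, 11 had positive and 6 negative values, with a median of 1.02. At an unadjusted p under 0.05, 7 were higher and 0 lower. Musk, a receptor of the nerve and muscle synapse, had medians of 0.741 and 3.01 CPM (2.33, adjusted p 0.129), and Myf6, a transcription factor of muscle fibres, 0.785 and 4.29 (2.71, adjusted p 0.141). In bulk samples fewer cells of a type and less RNA per cell cannot be told apart. When the muscle sum entered as a covariate, edgeR kept 2 of the 16 calls, Trp53 at 1.27 and Ifitm2 at -1.11, among 6 in that fit. Of the 16 genes Atp1b2 changed most. Smaller changes went both ways, as for Polr2j (-0.60 to -0.40) and Nav1 (0.62 to 0.73).

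**Figure D3:**
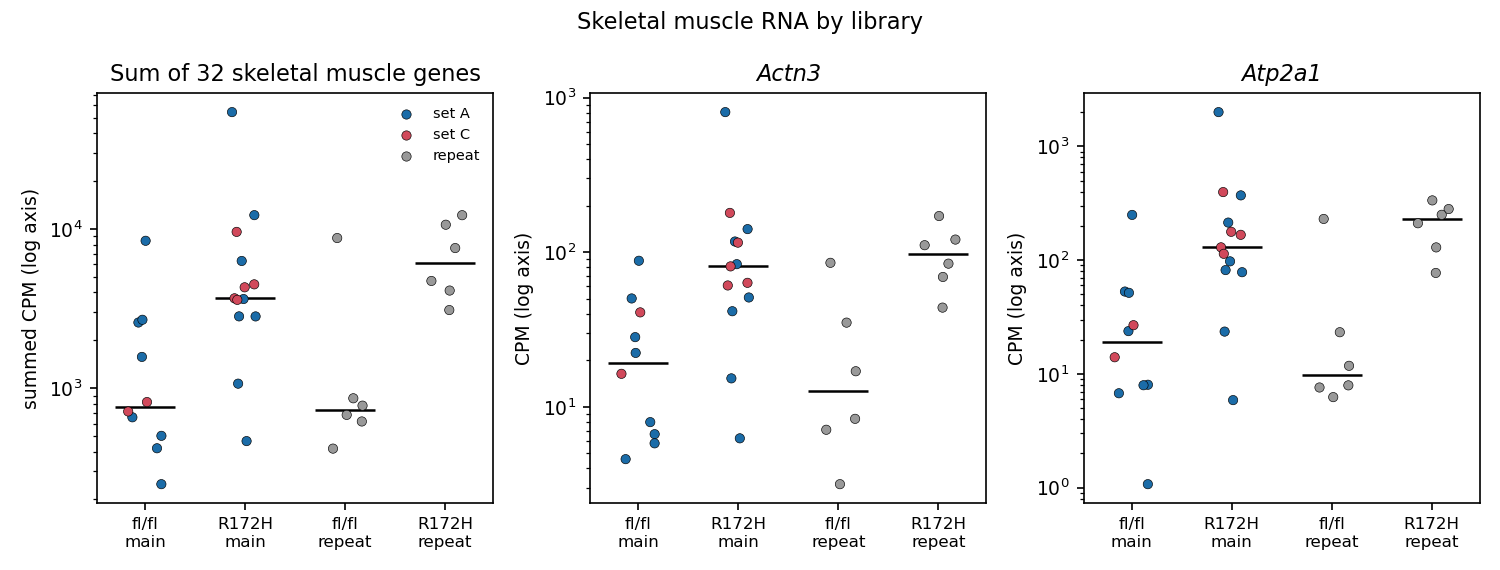
Summed CPM of 32 skeletal muscle genes, and CPM of Actn3 and Atp2a1, in each library on log axes (points; blue for set A, red for set C, grey for the repeat), with the group median as a bar. Mutant libraries lie mostly above p53fl/fl libraries, with p53fl/fl tumour 562 (sum 8452) and its repeat library 475 (8797) among the mutant values.

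Lists of bone cell genes had medians closer to 0. Of 30 osteoblast and bone matrix genes, 0 were called, and the median was 0.04. Pth1r, the receptor of parathyroid hormone, had medians of 183 and 281 CPM (0.76, SE 0.25, adjusted p 0.213 by edgeR), and Panx3, a channel protein of osteoblasts, 138 and 273 (1.03, SE 0.37, adjusted p 0.246). Osteocyte genes (13 tested) had a median of -0.04, osteoclast genes (18) -0.15 and cartilage genes (16) 0.06, with 0 calls in each. Medians of the bone cell lists varied by set. The osteoblast and bone matrix list gave 0.04 in set A, 0.23 in set C and 0.39 in the repeat. The osteocyte list gave -0.21 in set A, -0.05 in set C and 0.76 in the repeat, and the osteoclast list -0.10, -0.45 and -0.38. The cartilage list gave -0.11, 1.12 and 0.12. Col9a2, a collagen of cartilage, had a log2 fold change of -3.35 (adjusted p 0.191) although its medians were 0.155 and 0.363 CPM, since p53fl/fl tumour 562 reached 33.4.

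Immune and vessel lists had no called gene. Medians were -0.18 for macrophage genes (19 tested), 0.44 for T and NK cell genes (20), 0.37 for B and plasma cell genes (12) and 0.16 for neutrophil and marrow genes (12). Several of these reversed between sets. Neutrophil and marrow genes gave -0.39 in set A, 1.56 in set C (12 of 12 positive) and -0.79 in the repeat (0 of 12). B and plasma cell genes gave -0.21 in set A (1 of 9 positive), 2.06 in set C (12 of 12) and 0.29 in the repeat. Macrophage genes gave 0.01, -0.54 and -0.46. T and NK cell genes gave 0.16 in set A and 1.12 in set C, at summed levels of only 9.8 to 63.7 CPM per p53fl/fl library and 12 to 46.6 per mutant library. Endothelial genes had a median of 0.18, with 16 of 19 positive. Esam, an adhesion molecule of vessel walls, had medians of 23.3 and 32.7 CPM (0.44, SE 0.17, adjusted p 0.278 by edgeR). Interferon response genes gave 0.24 over all main libraries, but 0.77 in set A, -0.80 in set C and 0.03 in the repeat. Erythroid genes gave 0.10, adipocyte genes 0.18, smooth muscle and pericyte genes 0.37, Schwann cell and neural crest genes 0.26, and keratinocyte and epithelial genes -0.43. The erythroid list reversed from -0.26 in set A to 1.37 in set C (14 of 14 positive), with -0.50 in the repeat. The keratinocyte list gave -0.39 in set A, 0.78 in set C and 0.31 in the repeat.

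Genes known from osteosarcoma genetics showed no called difference. Of 34 tested, 2 were higher and 5 lower at an unadjusted p under 0.05, with a median of -0.04. E2f3, a transcription factor that drives entry into S phase, had the smallest p. It had 16.2, 23.2 and 38.6 CPM in p53fl/fl and 19.9, 33.9 and 153 in p53R172H/fl (log2 fold change 0.84, SE 0.30, adjusted p 0.24 by edgeR). Mutant tumour 1439 carried the highest value, 153 CPM, and its matched repeat library 476 had 148, while the next mutant library had 56.6. Birc2, an inhibitor of cell death, had medians of 53.8 and 36.4 CPM, with a highest p53fl/fl library of 179 (-0.72, adjusted p 0.255).

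Cell cycle and housekeeping lists had small pooled medians that varied by set. They were -0.02 for G1 and E2F genes (25 tested), 0.14 for mitosis genes (30), 0.14 for DNA replication and repair genes (30), 0.11 for oxidative phosphorylation genes (30) and 0.05 for proteasome subunits (29), with 0 calls. DNA replication and repair genes gave 0.48 in set C (28 of 30 positive) and -0.02 in the repeat, and mitosis genes 0.31 (26 of 30) and -0.09. Oxidative phosphorylation and proteasome genes changed sign in set C, at -0.22 and -0.27, and in the repeat, at -0.39 and -0.40. Cholesterol synthesis genes leaned higher, with 20 of 24 positive, 5 higher and 0 lower at an unadjusted p under 0.05, and a median of 0.24. The list's median was 0.33 in set A, 0.05 in set C and 0.01 in the repeat. Hypoxia and glycolysis genes gave 0.02, with 0.41 in set A and -0.82 in set C.

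Among signalling lists, Wnt pathway genes had a median of -0.22 (36 tested, 2 higher and 3 lower at an unadjusted p under 0.05). Rspo3, a secreted amplifier of Wnt signals, had 2.21, 4.86 and 65.1 CPM in p53fl/fl and 0.663, 2.85 and 10.2 in p53R172H/fl (-2.34, SE 0.60, adjusted p 0.105 by edgeR). Imprinted growth genes had a median of -0.35, but this reversed to 0.50 in set C. Dlk1, an imprinted membrane protein related to Notch ligands, had medians of 0.40 and 0.639 CPM, while its log2 fold change was -5.48 (SE 1.40, adjusted p 0.105), with 591 CPM in p53fl/fl tumour 562. TGF-beta and BMP genes gave -0.15, Hippo genes -0.20, matrix remodelling genes -0.18, Notch genes -0.05, cytokines and chemokines 0.09, cadherins 0.02, limb and jaw position genes -0.29 and germline genes -0.12. Not 1 gene of these lists was called. In set C the medians of the limb and jaw, germline, Hippo and Notch lists were positive, 0.44, 1.06, 0.09 and 0.18, and that of cytokines and chemokines was -0.31. In the main libraries without a match the Wnt list gave 0.37.

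Large fold changes without a call were common. Of the 170 genes whose log2 fold change was 2 or more in either direction, 168 were not called. In 25 of the 168 the group medians of log2 CPM lay within 0.5 of each other, so that a few libraries set the fold. Hif3a, a relative of the hypoxia factors, had medians of 0.295 and 0.17 CPM, a highest p53fl/fl library of 88.7 CPM and a log2 fold change of -5.64 (adjusted p 0.0835 by edgeR).

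Genes that leaned the same way clustered by chromosome. On chromosome 9, 15.2% of 1068 tested genes were higher and 2.34% lower at an unadjusted p under 0.05, and on chromosome 13, 11.7% and 2.86% of 630. Of the 74 higher genes on chromosome 13, 46 lay between 20 and 40 Mb. Its other windows of 20 Mb had 2.33% to 10.3% higher. On chromosome 11, which carries Trp53, 9.28% of 1422 genes were higher and 3.23% lower. The opposite held on chromosome 3 (2.88% higher and 14.8% lower of 1043), chromosome 17 (1.59% and 14.7% of 817) and chromosome 5 (2.14% and 12.5% of 1311). Over all genes the shares were 5.34% and 7.04%. Leaving out each library in turn moved the share of higher genes on chromosome 9 between 12.5% and 19.7%, and the share of lower genes on chromosome 3 between 11.7% and 16.1%. The median log2 fold change was 0.18 on chromosome 9 and -0.17 on chromosome 3, so the shift per gene was small. In set C alone the medians of chromosomes 3 and 5 were positive, 0.13 and 0.03. Those of chromosomes 9, 13 and 17 kept their sign in both sets and in the repeat. So did that of chromosome 11, at 0.11 over all main libraries, 0.14 in set A, 0.04 in set C and 0.09 in the repeat. Neighbouring genes are not independent of each other. These regions were picked after their values were seen.

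**Figure D4:**
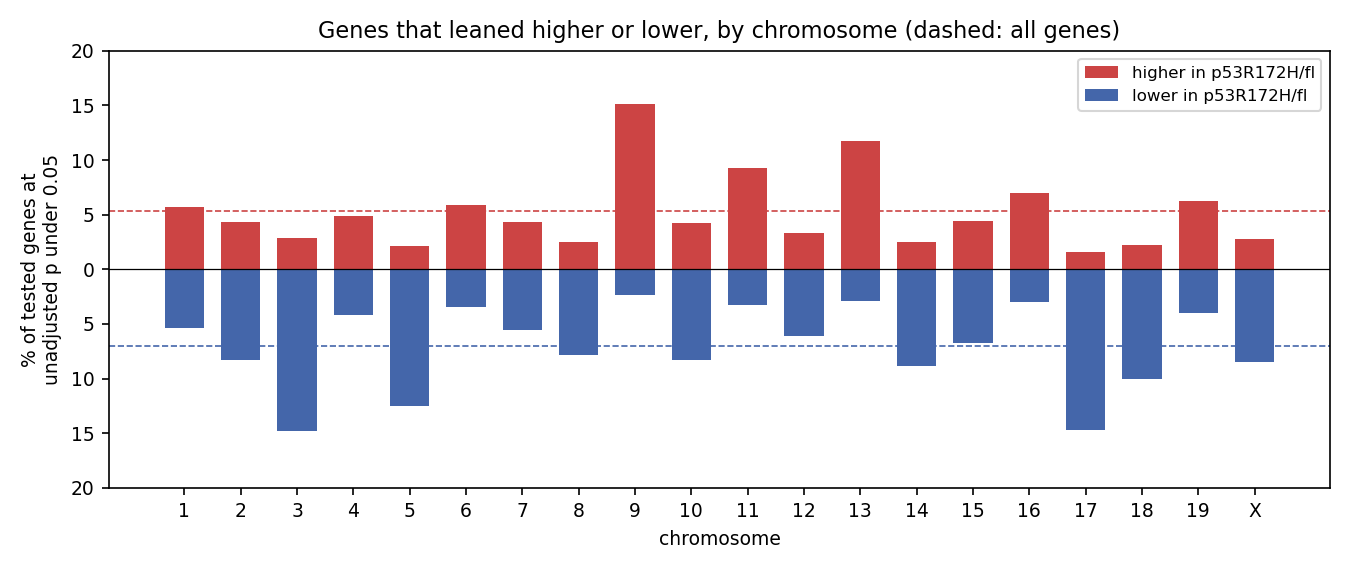
Share of tested genes with an unadjusted p under 0.05 on each chromosome, higher in p53R172H/fl upward and lower downward, in percent, with dashed lines at the shares over all genes. Chromosomes 9 and 13 stand out upward (15.2% and 11.7%) and chromosomes 3, 17 and 5 downward (14.8%, 14.7% and 12.5%). On chromosome 13, 46 of the 74 higher genes lie between 20 and 40 Mb. Chromosome 11 follows upward at 9.28%.

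Of 139 windows of 20 Mb, the one with the highest median lay on chromosome 13 from 20 to 40 Mb. Of its 133 tested genes, 46 (34.6%) were higher and 1 was lower at an unadjusted p under 0.05, with 0 calls. The median log2 fold change was 0.41, and 0.40 in set A, 0.53 in set C, 0.17 in the repeat and 0.26 in the main libraries without a match. E2f3 lies in this window (29906575 to 29986063). Each library was also described by the median deviation of 97 genes of the window with a mean of at least 5 CPM. Mutant tumours 1439, 622 and 847 had the highest values, 1.11, 0.48 and 0.36 log2 units, and mutant tumour 1509 a low one, -0.43. p53fl/fl libraries ranged from -0.47 to 0.07. The groups therefore overlapped, and without tumour 1439 the median log2 fold change of the window was 0.30. A window of chromosome 5 from 0 to 20 Mb had the lowest median, -0.36, with 25% of 68 genes lower. Copy number was not measured in these files, and its part in these shifts was not tested.

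**Figure D5:**
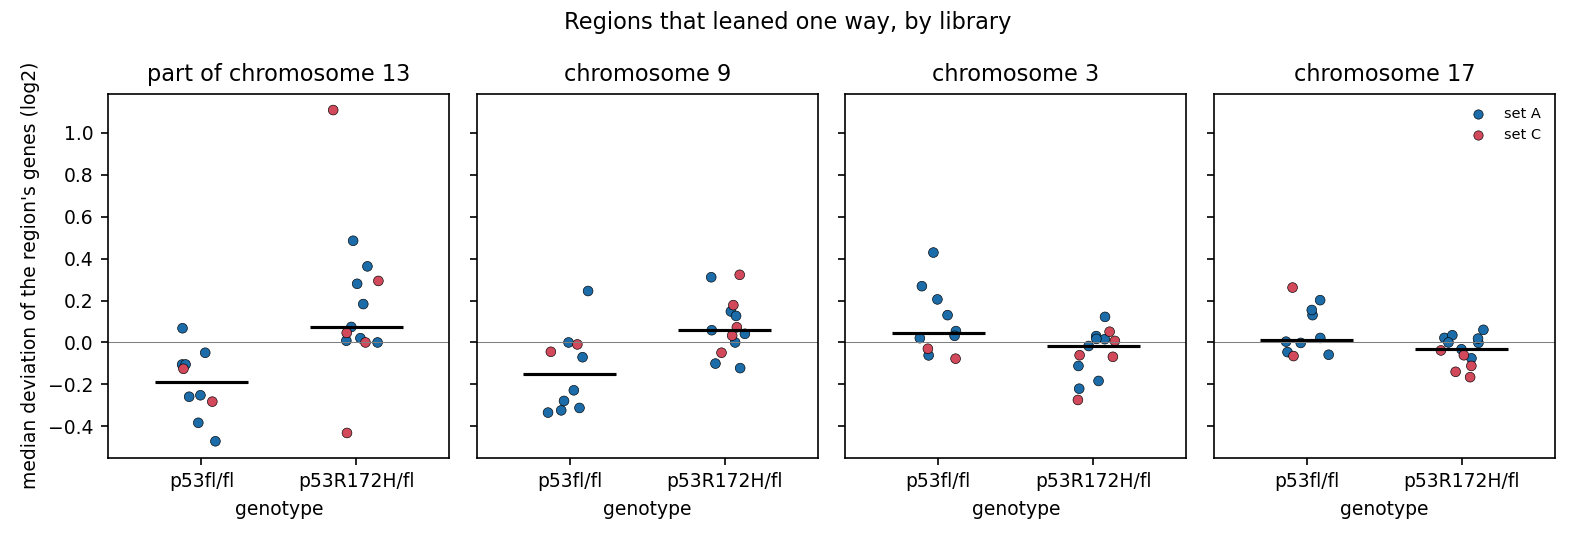
Median deviation (log2) of the genes of a region in each main library from their median over libraries, for chromosome 13 from 20 to 40 Mb and for chromosomes 9, 3 and 17 (points; blue for set A, red for set C; bars, group medians). Tumour 1439 is the point at 1.11 in the chromosome 13 panel, and the genotypes overlap in all 4 panels.

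The p53R172H/fl main libraries were also set beside 11 libraries of p53R245W/fl, another missense genotype. Against these edgeR called 2726 of 18959 genes (14.4%), 1239 higher (6.54%) and 1487 lower (7.84%) in p53R172H/fl. With library set as a covariate it called 0 (0.0%), and 3289 genes had an unadjusted p under 0.05 (17.3%). All 11 p53R245W/fl libraries belong to set C, while 8 of 13 p53R172H/fl libraries belong to set A, so set and genotype are largely confounded there. Within set C every p53R172H/fl column name has the lane tag 003. Among p53R245W/fl names only that of tumour 1580 has it, and the others have 004 or 005. The set covariate does not adjust for this. The comparison shares its mutant libraries with the main test. Trp53 had a median of 32.9 CPM in p53R245W/fl, and the log2 difference was 0.15 (adjusted p 0.506 by edgeR). Ifitm2 differed by -1.04 (adjusted p 0.0025), with a p53R245W/fl median of 45.1 CPM, and by -0.94 with the set covariate, where it was not called. Gm4737 had a median of 5.46 CPM in p53R245W/fl, and Atp1b2 2.06. No gene is therefore given as particular to p53R172H/fl.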

How the data were processed

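RNA of flash-frozen tumours was made into stranded mRNA libraries and sequenced as paired reads, per the labels' protocols. The authors deposited raw read counts per Ensembl gene, with no normalization. Reads were aligned with STAR to GRCm38, per the submitters' processing notes. None of the sources used here gives the STAR version, the counting program, its use of strand or the annotation. The lowest gene total in the deposited counts was 260, so rarer genes had been removed. Identifiers were joined to GENCODE M21 on GRCm38, ignoring version suffixes, and 20668 of 20730 matched. Sequence is the GENCODE reference.

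From the counts, edgeR 4.0.16 in R 4.3.3 gave TMM sizes, CPM, log2 CPM (prior count 2) and robust quasi-likelihood F tests after filterByExpr (minimum count 10), adjusted by Benjamini-Hochberg over all tested genes. Each SE was derived as the size of the log2 fold change divided by root F. The 23 main, the 12 repeat and the 34 libraries of 3 genotypes were scaled separately. The muscle and sex covariates and the Xist and Ddx3y cutoff used CPM without TMM. Permutation tests of Trp53 and of the variance taken by genotype used log2 CPM, with 100000 resamples or, for Trp53 in the repeat, exact enumeration. The scripts were tested on simulated data with the depths and spread of these libraries. There edgeR recovered 58 of 100 genes changed 2-fold in the main design and 14 of 100 in the repeat. For 4-fold changes it recovered 86 and 69 of 100. Alternatives were DESeq2 1.42.0, voom with quality weights (limma 3.58.1), other size factors and filters, covariates and other choices of libraries. Fits that left out libraries, the pool of all 35, the unmatched libraries and the muscle covariate were chosen after seeing the data.

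The libraries compared and the 39 gene lists (962 entries) were chosen with earlier results of these data known. Named genes are Trp53 and, among called genes with a regular symbol, a mean of at least 1 CPM and group medians at least 0.5 log2 apart in the direction of the call, the 10 largest rises and falls, the 8 with the smallest p and the 10 with the smallest p of 1 direction in sets A and C and the repeat. From each list the rule takes up to 4 called members, or up to 2 with the smallest p where none is called. Outside this rule, and picked with their values in view, are Gm4737, AA465934, Sp3, Polr2j, Ppp1cc, Ifitm1, Ifitm3, Cdkn1a, Mdm2, Myc, Cop1, Wrap53, Kdm6b, Fxr2, Sat2, Atp2a1, Col1a1, Runx2, Sp7, Birc2 where it stands for the osteosarcoma list, and Hif3a.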

Additional observations from a re-analysis of the deposited data

Results flagged for a closer look

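Of 56 groups of 4 to 10 libraries examined for a library far from the rest, 2 held one (Dixon's test at 95%), and chance gives about 1 in 20. In the repeat, mutant library 476 had Fmr1 at 4.85 log2 CPM, below the other 5, whose median was 5.58. It is also the library of lowest depth, 21596798 counts, and its match, main tumour 1439, had 47.3 CPM of Fmr1, the median of its group.

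In the repeat, p53fl/fl library 475 had a summed skeletal muscle level of 13.1 on the log2 CPM scale, while the other 5 had a median of 9.41. Its match, main tumour 562, had the highest sum of the p53fl/fl main libraries, 8452 CPM. The part of either library in the group differences was not tested beyond the fits that left out 1 main library.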

How the results depend on the processing

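The main test called 16 genes. The count was 16 with RLE factors, 19 at a minimum count of 50, 15 with library set as a covariate (9 of the 16 among them) and 17 with a sex index. It moved to 314 by DESeq2 (140 higher, 174 lower), 42 by limma voom (19 higher, 23 lower), 59 with no filter (8 higher, 51 lower), 95 in set A alone (50 higher, 45 lower) and 1 in set C alone. It was 36 in the fit of 3 genotypes, 40 with matched libraries summed (12 higher, 28 lower), 52 (21 higher, 31 lower) after adjusting for TEC and sense intronic loci, 6 with the muscle sum, 0 in the repeat alone, 0 in the main libraries without a match (1377 genes at an unadjusted p under 0.05) and 1 without the 5 libraries that held Xist and Ddx3y. Counting all 35 libraries as separate tumours gave 963. Leaving out 1 library gave 4 to 53 calls. Leaving out p53fl/fl tumour 4183 gave 53, and leaving out p53fl/fl tumours 1512, 562 or 6019 or mutant tumour 865 gave 16, 19, 19 and 22. Leaving out any other library gave 4 to 9. Trp53 kept its direction throughout, and was not called in set C alone (1.91), the repeat alone (1.33) or the main libraries without a match (1.01). In the repeat DESeq2 called 184 genes and limma voom 19. Against p53R245W/fl the count was 0 with library set as a covariate. No called gene changed direction under any alternative in which it was tested. The causes of these differences were not tested. No paired analysis was possible because the tumour numbers of the genotypes are not shared.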
